A study of Mus musculus with 6 samples.

Results

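The genes described here are 40 that load transfer RNAs with amino acids or supply those amino acids: 20 cytosolic aminoacyl-tRNA synthetases, 12 enzymes of amino acid synthesis and 8 amino acid transporters. They were taken by gene symbol from the probe sets that carry a single symbol in the array's annotation, and each gene was read from its brightest probe set over the 6 arrays. Of the 40, 38 had such a probe set among the 18193 genes that did; Dars, the aspartyl-tRNA synthetase, and Pycr1, a proline synthesis enzyme, have no array values here and enter only the promoter search. Mars is listed under its newer symbol, Mars1.

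The series measured RNA of whole mouse lung at E18.5, shortly before birth, on 6 MOE430 V2 arrays. The 3 Scap_ko samples came from lungs whose respiratory epithelial cells lacked Scap, and the 3 Scap_control samples were controls; all were of a mixed FVB/N and B6 background. The promoter that drove the deletion, the controls' exact genotype and the number of animals in a sample are not given in the sources used here, so p-values measure only how far these samples spread, and that spread may be technical. Scap is the escort protein that SREBP transcription factors need to reach the Golgi and be cut free, after which they switch on lipid synthesis genes. The comparison shows which transcripts of the whole lung stand higher or lower when epithelial cells lose that escort.

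A synthetase joins its amino acid to the matching transfer RNA, and the charged transfer RNA then feeds the ribosome. When amino acids run short, or when proteins misfold in the endoplasmic reticulum, kinases phosphorylate the initiation factor eIF2, most translation slows and translation of the transcription factor ATF4 increases. ATF4, with C/EBP partners, is known to switch on many synthetase genes, the serine and asparagine synthesis enzymes and several amino acid transporters, in part through composite C/EBP-ATF elements in their promoters.

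Such an element was looked for as the letters TGATGNAA on either strand of the RefSeq promoters of build GRCm38.p6, each reaching from 250 bases before to 50 bases after a gene's start. A promoter was listed for 30 of the 40 genes, and 9 of them held it, against 4.51% of the 27025 genes in the table. They were 5 synthetase genes, the 2 synthesis enzyme genes Asns and Pycr1, and the 2 transporter genes Slc7a11 and Slc1a4. The matches of 8 of these genes, all but Pycr1, are shown because the array values of these genes are given further on. Each sequence runs 5′ to 3′ on the gene's own strand, the match is in capitals, and positions count from the start, with -1 the last base before it.
Asns, chr6:7693210-7693262, minus strand, match at -23 to -16: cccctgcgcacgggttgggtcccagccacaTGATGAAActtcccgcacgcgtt
Aars, chr8:111033700-111033767, plus strand, the first of 2 matches, at -112 to -105: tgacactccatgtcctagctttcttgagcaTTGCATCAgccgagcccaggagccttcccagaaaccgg
Aars, chr8:111033840-111033869, plus strand, the second match, at 10 to 17: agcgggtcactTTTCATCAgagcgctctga
Tars, chr15:11399659-11399703, minus strand, match at -15 to -8: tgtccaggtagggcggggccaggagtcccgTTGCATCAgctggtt
Gars, chr6:55037941-55038000, plus strand, match at -30 to -23: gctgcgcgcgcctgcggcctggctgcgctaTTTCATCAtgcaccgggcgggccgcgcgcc
Slc1a4, chr11:20332710-20332747, minus strand, match at -4 to 4: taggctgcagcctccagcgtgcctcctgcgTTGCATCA
Slc7a11, chr3:50443642-50443709, minus strand, the first of 2 matches at -66 to -59: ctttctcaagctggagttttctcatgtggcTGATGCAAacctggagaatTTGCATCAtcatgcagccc
Yars, chr4:129189895-129189924, plus strand, match at 4 to 11: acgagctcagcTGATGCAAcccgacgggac
Iars, chr13:49682126-49682155, plus strand, match at 8 to 15: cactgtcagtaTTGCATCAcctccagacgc
A match is a description of the letters, not a binding site, and genes without one may hold the letters outside this window. The promoters of Phgdh, Mthfd2, Gpt2, Aldh18a1 and Slc7a1 held no match.

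Values below are signals in array units, the log2 difference is Scap_ko minus Scap_control, its standard error (SE) is that of the limma fit, and adjusted p is limma's p after Benjamini-Hochberg adjustment over the 10972 genes whose mean signal reached the median of all probe sets, 497.8. Scap itself read 7264, 4195 and 3080 on the control arrays and 1847, 3286 and 2702 on the Scap_ko arrays, so the groups overlapped and the labels are only weakly checked (exact two-sided permutation p = 0.2, where 0.1 is the smallest that 3 against 3 arrays allow). Array medians lay between 490.9 and 530.5 after the deposited scaling to a common trimmed mean, and precision is limited by having 3 arrays a group. The arrays numbered 3 of both groups stood apart from the other 4 on the first principal component, which held 36.6% of the variance. None of the 46 marker genes measured read 0, which does not show that they were detected, since the lowest signal was 1.8. The liver and thymus markers all lay below the brightness limit by their mean over the arrays. Of 6 epithelial markers, 4 had negative differences; Sftpc averaged 97440 in controls and 97286 in Scap_ko, whereas Sftpb (log2 difference -0.39) and Epcam (-0.37) were lower at an unadjusted p of 0.05, as was Cdh5 (-0.22) among 4 endothelial markers. Summed signal of 6 liver genes was 893.8 to 9839 in controls and 538.3 to 784 in Scap_ko, highest on control 2. Of 5 genes listed as leukocyte markers, Lyz2 averaged 58937 in controls and 34436 in Scap_ko without overlap. Its signal dominated the summed signal of the list, which did not overlap either. Ptprc averaged only 2055 in controls, and which cells the Lyz2 signal came from was not tested. Ptprc, Cd68 and Cd52 had positive differences, Csf1r a negative one (-0.13), and the list's mean log2 deviation overlapped between the groups. All 4 tested heart and skeletal muscle markers had positive differences (median 0.20), and the 2 tested erythroid markers had negative ones (median -0.26). Over all tested genes 51.7% were positive. The part of these markers in the results below was not tested. In whole lung, fewer cells of a type and less RNA per cell cannot be told apart.

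The synthesis enzymes Mthfd2, Asns and Phgdh, the arginine and lysine transporter Slc7a1 and the alanyl-tRNA synthetase Aars read highest against controls, while other serine pathway enzymes and most synthetases differed little and the neutral amino acid transporter Slc1a4 read lower. No listed gene passed an adjusted p of 0.05, a threshold that 0.00911% of all tested genes passed. At an unadjusted p of 0.05, 6 of the 36 tested members read higher, against 2.88% of all genes tested, and 0 read lower, against 3.04%. With the replicate number as a block the counts were 7 higher, against 4.18% of all genes, and 1 lower, against 4.52%. Differences were positive in 29 of the 36, against 51.7% of all genes, and their median was 0.12 against 0.01. Every Scap_ko array lay above every control array in 6 members, against 6.11% of all tested genes, and below in 0, against 5.72%. Over the 38 measured members, with no brightness limit, 30 were positive. Of the tested members, 1 reached the brightness limit only through its Scap_ko arrays, Mthfd2, whose geometric mean was 492.1 in controls and 852.6 in Scap_ko, so counts over tested members include a gene that had to read higher.

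**Figure D1:**
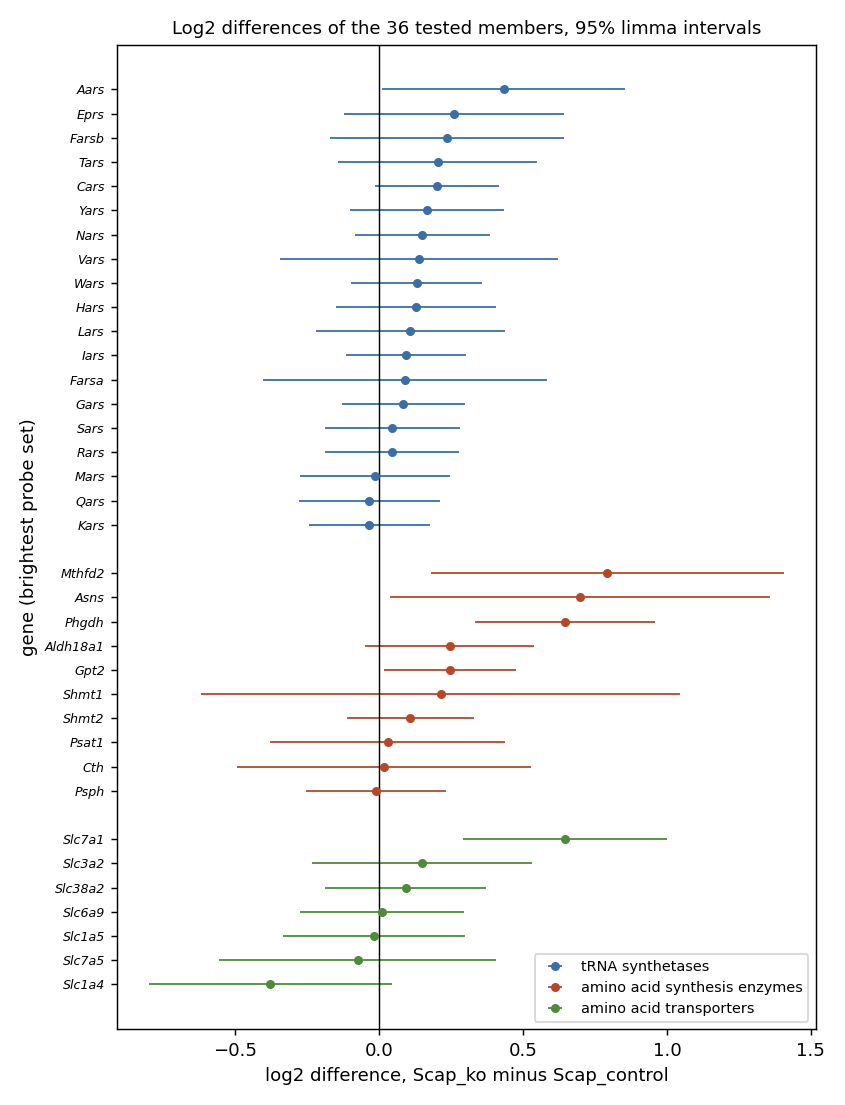
Log2 difference, Scap_ko minus Scap_control, of the 36 tested members by class, with 95% limma intervals from 3 arrays per group. The intervals of 6 genes, Mthfd2, Asns, Phgdh, Gpt2, Slc7a1 and Aars, lie above 0 before adjustment for the number of genes tested, and that of Slc1a4 reaches from -0.80 to 0.04.

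Of the 10 synthesis enzymes tested, 9 read higher on average than in controls, against 51.7% of all tested genes. The median gene stood at 117.2% of control, and 4 read higher at an unadjusted p of 0.05, against 2.88% of all tested genes. That count was 2 without control 1, control 2, control 3 or Scap_ko 1. In 3 enzymes every Scap_ko array lay above every control array, against 6.11% of all tested genes. Without Scap_ko 3 this held for 6 enzymes and for 12.3% of all tested genes. Across arrays the mean of the class, each gene set against its own mean, did not overlap between the groups. On the log2 scale it was -0.19 to -0.07 in controls and 0.07 to 0.23 in Scap_ko. This mean and the counts above include Mthfd2, which reached the brightness limit only through its Scap_ko arrays. The class mean without Mthfd2 was not computed. The measured differences varied between steps of the same pathway, and that variation was not tested.

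Phgdh, which commits the glycolytic intermediate 3-phosphoglycerate to serine synthesis, read 1329, 1301 and 1647 in controls and 2027, 2518 and 2137 in Scap_ko. Every Scap_ko array was above every control array, and Scap_ko stood at 156.4% of control (log2 difference 0.65, SE 0.13, limma adjusted p = 0.671). It ranked 24 of 10972 genes by p, and unadjusted p was 0.00161. The 3 dimmer Phgdh probe sets also had all Scap_ko arrays above all controls, with log2 differences of 0.51 to 1.02. All 4 carry the suffix that Affymetrix gives to probe sets with probes matching other sequences too, so signal from a near-identical sequence cannot be told apart from Phgdh.

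The next steps of the same pathway did not show that difference. Psat1, the aminotransferase after Phgdh, read 6052, 5277 and 4854 in controls and 6181, 6324 and 4222 in Scap_ko. Scap_ko 1 and Scap_ko 2 lay above every control, while Scap_ko 3 lay below every control. The log2 difference of 0.03 had a 95% interval of -0.38 to 0.44. Psph, the phosphatase that releases serine, read 1133, 1095 and 1068 in controls and 1197, 979.7 and 1107 in Scap_ko, with a log2 difference of -0.01 and a 95% interval of -0.25 to 0.23. The intervals of both end below the 0.65 measured for Phgdh. The interval of Phgdh itself, 0.33 to 0.96, overlaps that of Psat1 but not that of Psph. The differences between the genes were not tested.

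Mthfd2, a mitochondrial enzyme that passes on the one-carbon units drawn from serine, read 376.7, 785.3 and 402.9 in controls and 887.4, 850 and 821.6 in Scap_ko. Control 2 was far above the other controls, and all Scap_ko arrays were above it (log2 difference 0.79, SE 0.26, limma adjusted p = 0.739, unadjusted p = 0.0181). The second Mthfd2 probe set read 399.2, 363.7 and 368.3 in controls and 928.2, 946.2 and 596.6 in Scap_ko, which is 214% of control, and there control 2 did not stand out. Without control 2 the log2 difference of the brighter probe set was 1.13.

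The hydroxymethyltransferases split serine into glycine and a one-carbon unit, and both overlapped between the groups. Shmt2, the mitochondrial form, read 3179, 2844 and 3233 in controls and 3189, 3374 and 3402 in Scap_ko, and its next brightest probe set had a difference of -0.11 where the brightest had 0.11; the brightest carries the suffix for shared probes. Shmt1, the cytosolic form, read 2249, 1507 and 2190 in controls and 3422, 1260 and 2686 in Scap_ko. Scap_ko held both the highest and the lowest Shmt1 reading, and the 95% interval of its log2 difference was -0.62 to 1.05. The 3 dimmer Shmt1 probe sets gave 0.06, -0.04 and, below the brightness limit, -0.82.

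Asns, which makes asparagine from aspartate and is a standard readout of the amino acid response, read 1791, 1396 and 926.1 in controls and 2428, 2647 and 1538 in Scap_ko. The array numbered 3 was the lowest of each group, so Scap_ko 3 lay below control 1 and the groups overlapped (log2 difference 0.70, SE 0.28, limma adjusted p = 0.821, unadjusted p = 0.0412). Within pairs of arrays of the same number the differences were 0.44, 0.92 and 0.73, and with the replicate number as a block the unadjusted p was 0.00113 (adjusted p = 0.312). Without control 3 the log2 difference was 0.44, and the second Asns probe set gave 0.51 on all arrays. The proliferation markers were also lowest on the arrays numbered 3, with 6 tested genes averaging -0.31 and -0.40 on the log2 scale against 0.09 to 0.41 on the other 4 arrays; their part in the Asns readings was not tested.

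Gpt2, the mitochondrial alanine aminotransferase, read 643.6, 682.7 and 716.2 in controls and 768, 781.7 and 873.4 in Scap_ko, with no overlap (log2 difference 0.25, SE 0.10, limma adjusted p = 0.808, unadjusted p = 0.0387). Its probe sets disagreed: the next brightest gave 0.48, and another above the limit read 670.9, 617.2 and 667.4 in controls and 442.6, 406.3 and 608.7 in Scap_ko, a difference of -0.45. The mean over its probe sets above the limit was 0.09 on the log2 scale, so the direction of Gpt2 depends on the probe set. The transcripts that these probe sets read are not given in the sources used here.

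Aldh18a1, which starts proline synthesis from glutamate, read 2210, 2299 and 2058 in controls and 2767, 2869 and 2195 in Scap_ko. Scap_ko 3 lay within the controls (log2 difference 0.25, SE 0.13, limma adjusted p = 0.865). The 4 other Aldh18a1 probe sets, 2 of them below the brightness limit, had positive differences as well. The only Aldh18a1 probe set without the suffix for shared probes gave 0.16, with overlap between the groups. Cth, which makes cysteine from cystathionine, read 2928, 1598 and 2421 in controls and 2000, 2532 and 2317 in Scap_ko, a log2 difference of 0.02. Cbs, the enzyme before Cth, lay below the brightness limit and was not tested, at 430.9 ± 99.3 in controls and 423.3 ± 127 in Scap_ko (SD, n = 3).

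**Figure D2:**
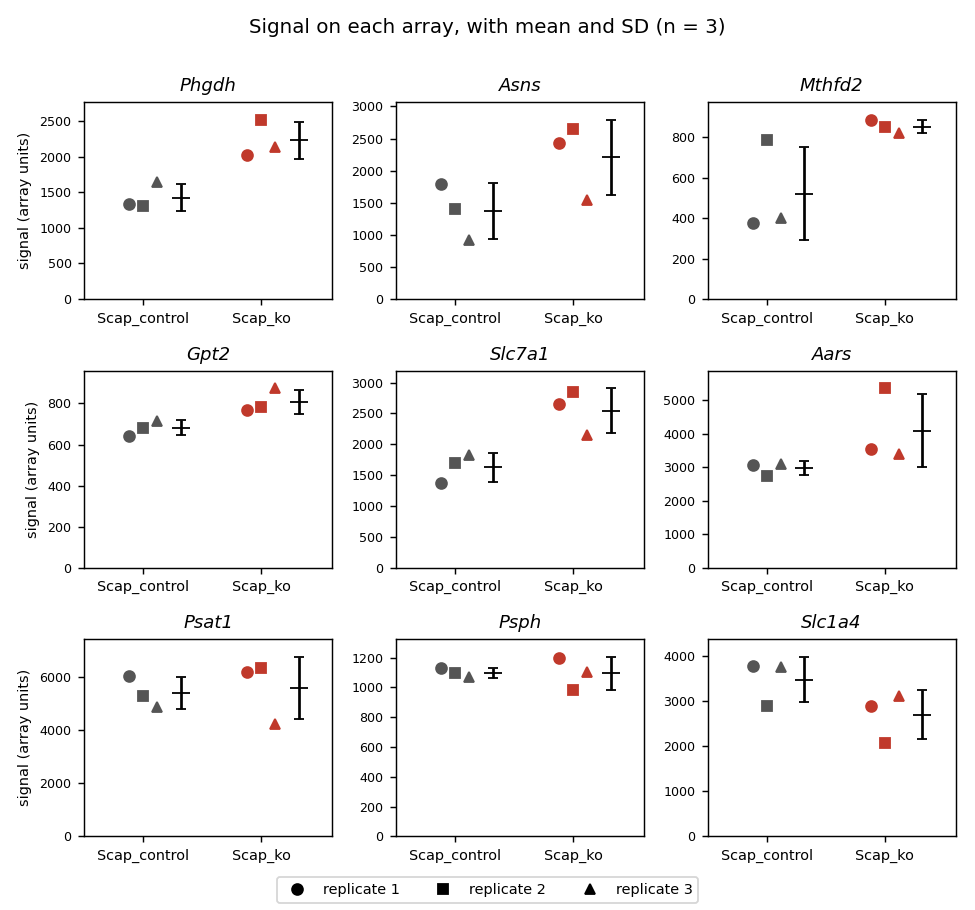
Signal on each of the 6 arrays for 9 members, with mean and SD (n = 3 per group) beside the points and marker shape giving the replicate number; axes start at 0. Phgdh, Mthfd2, Gpt2, Slc7a1 and Aars have all Scap_ko arrays above all control arrays, while Asns, Psat1, Psph and Slc1a4 overlap.

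Of the 8 transporters, 7 were tested and 4 had positive differences, against 51.7% of all tested genes. The median log2 difference was 0.01, as it was over all genes. Slc7a1 stood farthest above control and Slc1a4 farthest below. Slc7a1, which carries arginine, lysine and ornithine into cells, read 1366, 1695 and 1821 in controls and 2648, 2842 and 2147 in Scap_ko. All Scap_ko arrays were above all controls, at 156.4% of control (log2 difference 0.65, SE 0.15, limma adjusted p = 0.671, unadjusted p = 0.0033), and Slc7a1 ranked 52 of 10972 genes by p. Its second probe set read 788.3, 610.1 and 871.7 in controls and 1186, 1146 and 829.5 in Scap_ko, higher on average (0.48) but with Scap_ko 3 within the controls.

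Slc1a4, an exchanger of alanine, serine, cysteine and threonine, read 3778, 2894 and 3745 in controls and 2898, 2077 and 3101 in Scap_ko. The groups overlapped, and Scap_ko stood at 77.0% of control (log2 difference -0.38, SE 0.18, limma adjusted p = 0.853, unadjusted p = 0.0720). Scap_ko read lower within each pair of the same number, by -0.38, -0.48 and -0.27, and with the replicate number as a block the unadjusted p was 0.00732 (adjusted p = 0.412). Its 2 other probe sets had differences of -0.28 and -0.18, with overlap between the groups. Unlike the brightest, both read higher in Scap_ko in pair 2 (1373 to 1392 and 1506 to 1640). With the mean of probe sets the difference was -0.28 and limma's unadjusted p, without the block, was 0.137. The letters TTGCATCA in its promoter window, shown above, also occur in those of Aars, Tars, Iars and Slc7a11. Read on the other strand, as TGATGCAA, they occur in those of Yars, Pycr1 and Slc7a11.

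The other transporters overlapped between the groups. Slc3a2, the heavy chain that brings Slc7a5 and its relatives to the cell surface, read 4538, 4035 and 6091 in controls and 4909, 5254 and 5881 in Scap_ko, a log2 difference of 0.15 (95% interval -0.23 to 0.53) that was 0.021 without control 2 and 0.32 without control 3. Slc7a5, the light chain for large neutral amino acids, read 1341, 1216 and 2125 in controls and 1361, 1585 and 1375 in Scap_ko, a difference of -0.08 (-0.56 to 0.41). Both chains read highest on control 3, and without that array the difference of Slc7a5 turned to 0.17.

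Slc38a2, a sodium-coupled carrier of small neutral amino acids, read 13604, 15472 and 13016 in controls and 16918, 13777 and 14225 in Scap_ko (log2 difference 0.09). Slc1a5, the glutamine exchanger, read 6415, 5516 and 7485 in controls and 6072, 7023 and 5987 in Scap_ko (-0.02). Slc6a9, the glycine transporter, read 2797, 2436 and 2893 in controls and 2374, 2904 and 2918 in Scap_ko (0.01). In each of these 3 genes another probe set above the brightness limit had the opposite sign, at -0.01 for Slc38a2, 0.29 for Slc1a5 and -0.17 for Slc6a9. The second brightest Slc38a2 probe set read 5325, 6255 and 5778 in controls and 6032, 7522 and 7921 in Scap_ko, a difference of 0.30 with 1 Scap_ko array within the controls. Slc7a11, the cystine-glutamate exchanger with 2 matches to the letters in its promoter window, was below the brightness limit and was not tested. It averaged 115.8 ± 87.0 in controls and 107.7 ± 60.1 in Scap_ko (SD, n = 3).

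**Figure D3:**
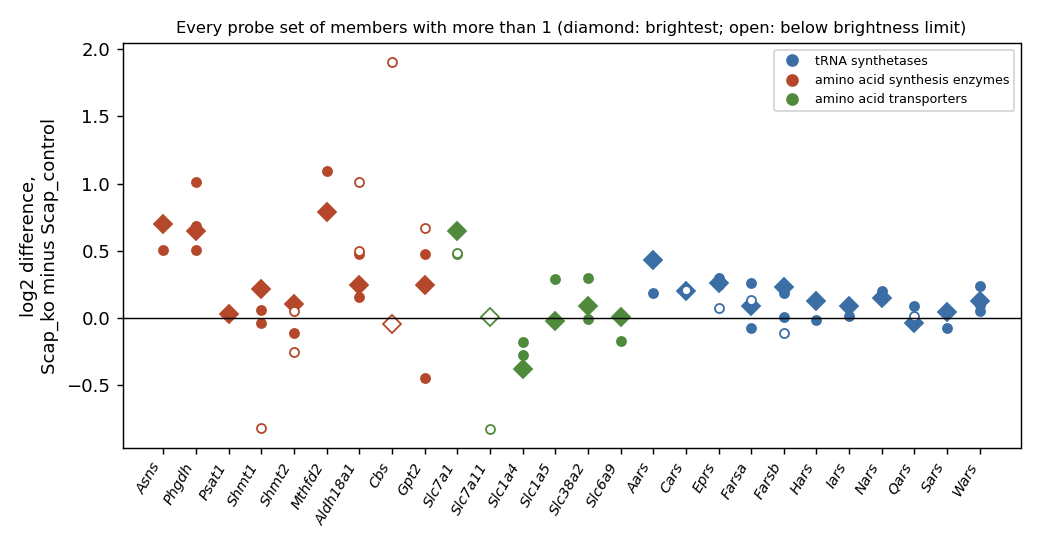
Log2 difference, Scap_ko minus Scap_control, of every probe set of the members that have more than 1; diamonds mark the brightest and open symbols those below the brightness limit of 497.8. All probe sets of Phgdh, Asns, Mthfd2, Aldh18a1 and Slc7a1 lie above 0 and all of Slc1a4 below, while Gpt2 spans -0.45 to 0.67.

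The synthetases, the largest class, had 16 of 19 tested members with positive differences, against 51.7% of all tested genes. Their median stood at 109.3% of control, against 100.4% over all tested genes. At an unadjusted p of 0.05, 1 of them (5.26%) read higher and 0 read lower, where 2.88% and 3.04% of all tested genes did so. The count of higher ones was 0 without control 1 and 3 without Scap_ko 3. Aars and Cars were the 2 in which every Scap_ko array lay above every control, as in 6.11% of all tested genes. There were 9 such synthetases without control 3 and 10 without Scap_ko 3, where 13.6% and 12.3% of all tested genes did so. The median log2 difference of the class, 0.13, was 0.083 without control 2 and 0.081 without Scap_ko 2. Class means on single arrays were -0.16 to 0.03 in controls and -0.00 to 0.12 in Scap_ko on the log2 scale, so the groups overlapped.

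Aars, the alanyl-tRNA synthetase, read 3067, 2729 and 3107 in controls and 3532, 5354 and 3387 in Scap_ko. Scap_ko 2 was far above the other arrays (log2 difference 0.43, SE 0.18, limma adjusted p = 0.831, unadjusted p = 0.0454), and without it the difference was 0.22. With the replicate number as a block the unadjusted p was 0.0518. The second Aars probe set read 3246, 2913 and 2784 in controls and 3109, 3831 and 3265 in Scap_ko, with overlap and a difference of 0.19.

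Cars, the cysteinyl-tRNA synthetase, read 1462, 1611 and 1444 in controls and 1760, 1770 and 1660 in Scap_ko, a narrow gap in which no arrays overlapped (log2 difference 0.20, SE 0.09, limma adjusted p = 0.849). Eprs, which joins the glutamyl and prolyl enzymes in a single protein, read 4804, 4598 and 3870 in controls and 5800, 6039 and 4186 in Scap_ko. Scap_ko 3 lay within the controls (log2 difference 0.26, SE 0.16, limma adjusted p = 0.894). The 2 next brightest Eprs probe sets had differences of 0.30, without overlap between the groups, and 0.25, with overlap. For the brightest, limma's unadjusted p was 0.154, or 0.0413 with the replicate number as a block. Without single arrays the Eprs difference lay between 0.16 (without Scap_ko 2) and 0.43 (without Scap_ko 3).

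Tars, the threonyl enzyme, read 2580, 2119 and 2615 in controls and 2759, 3311 and 2388 in Scap_ko (log2 difference 0.20, SE 0.15); the difference was 0.081 without Scap_ko 2, 0.11 without control 2 and 0.32 without Scap_ko 3. Nars, the asparaginyl enzyme, read 6115, 6175 and 6914 in controls and 7196, 7510 and 6602 in Scap_ko (0.15, SE 0.10). Yars, the tyrosyl enzyme, read 2412, 2566 and 2451 in controls and 3033, 2404 and 2941 in Scap_ko (0.17, SE 0.11). On the brightest probe set of each of these 3 genes, 1 Scap_ko array lay within or below the controls. It was the array numbered 3 in Tars and Nars but number 2 in Yars. The second Nars probe set read 5502, 5419 and 5817 in controls and 6549, 6317 and 6351 in Scap_ko, with no overlap (0.20). Farsb, the beta subunit of the phenylalanyl enzyme, read 2728, 2366 and 3764 in controls and 3548, 3098 and 3606 in Scap_ko (0.24, SE 0.17). Its difference was 0.090 without control 2 and 0.42 without control 3. Another Farsb probe set of similar brightness averaged 3065 in controls and 3079 in Scap_ko, a difference of 0.007. A further one above the brightness limit gave 0.18. Farsa, the alpha subunit, had a difference of 0.09 (SE 0.21).

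Gars and Iars, the glycyl and isoleucyl enzymes, both hold the letters in their promoter windows. Gars read 4273, 4565 and 4833 in controls and 4877, 4897 and 4702 in Scap_ko, and Iars read 3538, 3390 and 3622 in controls and 3764, 3930 and 3568 in Scap_ko. In both, Scap_ko 3 alone lay within the controls.

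The remaining synthetases, these 2 included, had log2 differences between -0.03 and 0.14. Above 0 were Gars, Hars, Iars, Lars, Rars, Sars, Vars and Wars, the enzymes for glycine, histidine, isoleucine, leucine, arginine, serine, valine and tryptophan. Below 0 were Kars, Qars and Mars, the enzymes for lysine, glutamine and methionine. Kars read 4192, 3770 and 4079 in controls and 4015, 3869 and 3866 in Scap_ko, with a 95% interval of -0.24 to 0.17. For Hars and Sars another probe set above the brightness limit had the opposite sign, at -0.01 and -0.07, and so did a probe set each of Farsa (-0.07) and Qars (0.09).

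The arrays were also compared in pairs of the same number. Scap_ko read higher than the control of the same number in 15 of 19 tested synthetases in pair 1, 18 in pair 2 and 6 in pair 3. Over all 36 tested members the counts were 28, 31 and 17, where 49.4%, 54.5% and 47.9% of all tested genes were higher in pairs 1, 2 and 3. In pair 3 most synthetases read lower in Scap_ko than in the control. On the brightest probe sets, 12 members were higher in every pair: Aars, Cars, Eprs, Vars, Wars, Asns, Phgdh, Shmt2, Mthfd2, Aldh18a1, Gpt2 and Slc7a1. Of these, Vars differed by only 0.003 in pair 3. The member Slc1a4 was lower in every pair. The share of all tested genes higher or lower in every pair was not computed, so these counts lack a background. Other probe sets did not all follow. The second of Aars fell in pair 1 (3246 to 3109) and that of Slc7a1 in pair 3 (871.7 to 829.5). Without both arrays numbered 3, all Scap_ko arrays lay above all controls in 14 of 19 synthetases and 7 of 10 synthesis enzymes, a setting added after the data had been seen that leaves 2 arrays per group and in which 21.2% of all tested genes did so.

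**Figure D4:**
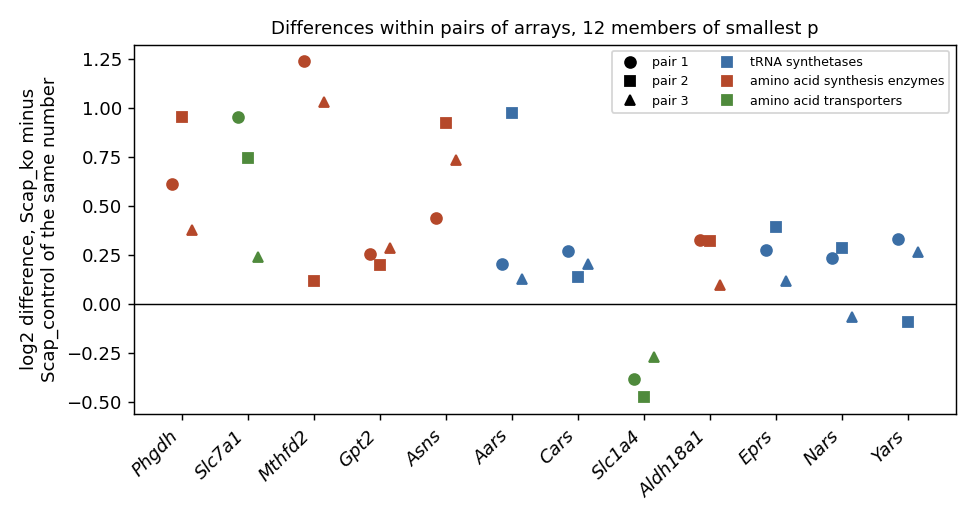
Log2 difference between the Scap_ko and the Scap_control array of the same number, for the 12 tested members of smallest p; marker shape gives the pair and colour the class. All pairs of Phgdh, Slc7a1, Mthfd2, Gpt2, Asns, Aars, Cars, Aldh18a1 and Eprs lie above 0 and all of Slc1a4 below; the pair 2 value of Aars, 0.97, is far from its other values, 0.20 and 0.12.

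The tested members were also set out by the TGATGNAA letters in their promoter window. The median log2 difference was 0.17 over the 7 genes with the letters, 6 of them positive, and 0.11 over the 19 with a promoter that lacks them, 15 of them positive; the difference was not tested. Asns, Aars and Tars are among the former and Phgdh, Mthfd2, Slc7a1 and Gpt2 among the latter.

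Related genes of the same processes were read from lists drawn up by function. For comparison, 51.7% of all tested genes had positive differences. Of 12 tested mitochondrial synthetases 9 were positive, and the median gene stood at 101.7% of control. Lars2, the mitochondrial leucyl enzyme, read 808.4, 866.9 and 663.7 in controls and 955, 940.8 and 964.5 in Scap_ko, with no overlap (log2 difference 0.30, limma adjusted p = 0.808, unadjusted p = 0.0371). Hars2, the mitochondrial histidyl enzyme, stood at 94.9% of control. Of 8 tested genes of the synthetase complex and related transfer RNA factors, 2 were positive; the scaffold gene Aimp1 stood at 85.3% and Eef1e1, another part of the complex, at 109.8% of control.

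Of 13 tested further enzymes of amino acid metabolism 7 were positive, and the median gene stood at 100.2% of control. Gpt, the cytosolic alanine aminotransferase, read 1012, 752.5 and 1102 in controls and 1194, 1261 and 1963 in Scap_ko, with no overlap (log2 difference 0.61, limma adjusted p = 0.792, unadjusted p = 0.0281). Mthfd2l, the close relative of Mthfd2, stood at 84.4% of control. Of 14 further transporters tested 8 were positive and 0 reached an unadjusted p of 0.05; Slc7a6, which forms a cationic and neutral exchanger with Slc3a2, read 1848, 1803 and 1863 in controls and 2061, 2166 and 2064 in Scap_ko. Slc43a1, a carrier of large neutral amino acids, stood at 87.1% of control.

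Regulators of the amino acid response had 13 of 17 tested genes positive, and 6 read higher at an unadjusted p of 0.05 with no overlap between groups, where 2.88% of all tested genes passed the first and 6.11% the second criterion; 0 of them passed an adjusted p of 0.05. Atf4, whose product controls the pathway, read 9092, 8524 and 8364 in controls and 10521, 11902 and 9812 in Scap_ko (log2 difference 0.31, limma adjusted p = 0.760, unadjusted p = 0.0205). The other 5 were Atf5, Atf3, Ddit3, Trib3 and Chac1, with differences of 0.75, 1.05, 0.80, 0.77 and 0.74. The rest of the list did not follow them, and its median gene stood at 104.9% of control. The 4 genes with negative differences were those of the eIF2 kinases, Eif2ak1, Eif2ak2, Eif2ak3 and Eif2ak4, between -0.15 and -0.01. Cebpb, Cebpg, Sesn2, Ddit4, Ppp1r15a and Eif4ebp1 lay between 0.00 and 0.13, and Nupr1 had 0.57 with overlap between the groups.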

How the data were processed

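The authors deposited 1 table of linear intensity values for 45037 probe sets and 64 control probe sets, which were left out. The submitters' processing notes name RMA, but the values are linear and share a trimmed mean of 1500; the software, background correction and detection calls are not given in the sources used here. Probe sets with several symbols (932) or none (9160) were not named. Signals were put on the log2 scale with no pseudocount, each gene was represented by its brightest probe set, 7221 genes below the median brightness were not tested, and limma 3.58.1 (lmFit, then eBayes; R 4.3.3) compared Scap_ko with Scap_control without covariates. The fit was checked on simulated data.

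The titles number the samples 1 to 3 in both groups. Same-numbered samples deviated together from their group means, with correlations of 0.17, 0.20 and 0.43, so the numbers may pair the samples, though control 2 with Scap_ko 1 reached 0.18. All values are from the fit without pairing unless the replicate block is named. The titles do not say what the numbers mean.

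Members and lists were chosen with earlier results of these data known. Signals by array are given for up to 7 members per class of smallest p and the largest difference the other way, and for related lists the gene of smallest p in each direction (up to 5 regulators). Psat1, Cth, Gars, Iars, Atf4 and the genes of the closing section were added after their values were seen.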

Additional observations from a re-analysis of the deposited data

How the results depend on the processing

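No member passed an adjusted p of 0.05 by limma under any alternative run. The count of genes called over all tested, 1, became 0 with the replicate number as a block, with no filter on dim probe sets, with the filter at the 75th percentile, with trend and robust variance and without both arrays numbered 3, and lay between 0 and 1 when single arrays were left out. The median log2 difference of the synthesis enzymes, 0.23, became 0.11 with the filter at the 75th percentile (5 members, all 5 positive), 0.086 with the mean of probe sets and 0.16 with probe sets that lack the _x_at suffix, and lay between 0.15 and 0.24 when single arrays were left out. That of the synthetases, 0.13, lay between 0.081 and 0.16 when single arrays were left out. That of the transporters, 0.01, became 0.13 both with the mean of probe sets and without both arrays numbered 3, and lay between -0.065 and 0.093 when single arrays were left out; with the mean of probe sets Slc1a5 turned to 0.14 and Slc6a9 to -0.081. Leaving out single arrays, log2 differences ranged from -0.085 to 0.64 for Shmt1, -0.077 to 0.067 for Psph, -0.23 to 0.17 for Slc7a5, -0.13 to 0.093 for Slc1a5 and -0.065 to 0.11 for Slc6a9. Without both arrays numbered 3, Slc7a5 turned to 0.20 and Slc1a5 to 0.13, and Shmt2 turned to -0.11 without _x_at probe sets. The replicate block changed no member's call at the adjusted threshold. Leaving out both arrays numbered 3 and the _x_at probe sets were chosen after seeing the data. Of 337 values of named members under alternatives 322 kept their direction and their side of the threshold and 15 changed sign. The replicate block, the trend and robust variance and the brightness filters leave a gene's log2 difference unchanged. The count of 322 therefore includes values that had to keep their direction. No detection calls were used, so the height of dim signals over background is unknown.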

Other observations

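Some genes of these processes lay below the brightness limit and entered no test, yet their groups were separate; they were picked after their values were seen. Slc7a3, another carrier of arginine and lysine and a relative of Slc7a1, read 246.3, 284.4 and 224.5 in controls and 656.9, 756.5 and 734.2 in Scap_ko, which is 285.2% of control. A dim second probe set of Cbs read 37.6, 40.2 and 87.6 in controls and 260.9, 152.6 and 175.5 in Scap_ko, while its brighter probe set showed no such gap. Slc1a2, a glutamate transporter, read 305.2, 354.8 and 339.7 in controls and 229.5, 206.1 and 274.7 in Scap_ko. Among all 18193 genes with a probe set, 922 had all Scap_ko arrays above and 1239 all Scap_ko arrays below the controls.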
